A study of Homo sapiens with 6 samples.

Results

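MCM2, MCM3, MCM4, MCM5, MCM6 and MCM7 encode the subunits of the replicative DNA helicase, and their mRNA was compared between wild strain TPC-1 cells and TPC-1 cells that overexpressed RRM2. The members were the rows of the deposited expression table that carried these symbols, 6 of 58735 genes, and each of the 6 was found once (ENSG00000073111, ENSG00000112118, ENSG00000104738, ENSG00000100297, ENSG00000076003 and ENSG00000166508 in that order). TPC-1 cells derive from a human papillary thyroid carcinoma. The wild strain group (TPC-1 in the figures) was 3 libraries of uninfected cells (genotype WT), and the RRM2-OE group (RRM2-OE-TPC-1) was 3 libraries of the same line after infection with a lentivirus that carried full-length RRM2 behind a CMV promoter and after puromycin selection. RRM2 is the small subunit of ribonucleotide reductase, the enzyme that makes deoxynucleotides. The control cells carried no empty vector, so infection, drug selection and RRM2 itself cannot be told apart in any comparison here. Whether the infected cells were a pool or a clone is not given in the sources used here. For RRM2-OE replicates 2 and 3 the genotype label reads RRM3 and RRM4, but the titles name RRM2. The replicates were biological according to the methods.

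The MCM2 to MCM7 proteins form a ring of 6 different subunits around DNA. In G1 phase the origin recognition complex, CDC6 and CDT1 load pairs of inactive rings onto replication origins, a step called licensing. In S phase, when the kinases CDC7 and CDK2 are active, CDC45 and the GINS complex join the loaded rings. The resulting CMG helicase unwinds DNA ahead of the polymerases. Proliferating cells transcribe the MCM genes, which are known targets of E2F transcription factors, and resting cells turn them down, so the proteins are used as proliferation markers in tumor pathology.

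The values were FPKM, fragment counts divided by gene length and by the depth of the library. Multiplied by gene length and scaled by a depth fitted to each library, the values above 0 fell on whole numbers of reads for 100% of genes (within 0.01 read). The 6 libraries held 14317091 to 17084067 reads on genes, and each MCM gene had 781 to 7734 reads in a library, so that the counting error in the library with fewest reads on the gene was 1.99% (MCM4) to 3.58% (MCM2) of its value. Libraries of a group correlated at 0.990 to 0.992 across genes and libraries of different groups at 0.927 to 0.931. RRM2 rose from 8.92 ± 0.346 to 48.4 ± 1.78 FPKM (SD, n = 3 in each group), and the files do not separate the transgene from the cell's own gene. Among thyroid markers, the transcription factors PAX8 (log2 fold change -0.24) and FOXE1 (-0.42) fell and HHEX (0.87) rose, whereas NKX2-1 was listed at 0 and TG, TSHR, SLC5A5 and DIO1 were below the minimum for testing. Among epithelial markers KRT18 rose from 41.2 ± 1.78 to 85.2 ± 1.26 FPKM and KRT8 from 2.56 ± 0.223 to 3.48 ± 0.115, KRT7 was at 1.18 ± 0.129 and 1.01 ± 0.0238 (limma adjusted p = 0.169), and KRT19, EPCAM and CDH1 were below the minimum. Most markers of other cells were low: 0 of 6 leukocyte, 2 of 7 fibroblast and 1 of 4 endothelial markers passed the minimum. The summed leukocyte markers ranged from 0.349 to 0.410 FPKM in the wild strain and from 0.107 to 0.183 in RRM2-OE cells. PTPRC, COL1A2 and CDH5 were listed at or near 0. The 2 fibroblast markers past the minimum were PDGFRB and COL1A1. PDGFRB, at 2.12 ± 0.271 FPKM in the wild strain and 2.37 ± 0.141 in RRM2-OE cells, was above KRT7 in both groups. COL1A1 was at 0.816 ± 0.0833 and 0.501 ± 0.0852 FPKM. The summed fibroblast markers ranged from 2.79 to 3.19 FPKM in the wild strain and from 2.79 to 2.96 in RRM2-OE cells, and the endothelial ones from 0.873 to 1.05 and from 0.0667 to 0.115. PECAM1, the endothelial marker tested, was at 0.924 ± 0.102 and 0.0588 ± 0.0356 FPKM.

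All 6 MCM genes were higher in RRM2-OE cells. The 3 RRM2-OE libraries lay above the 3 wild strain libraries for 6 of 6 members, against 37.3% of the 13621 genes tested, and the 6 members passed an adjusted p of 0.05 in the higher direction, against 34.9% of genes higher and 32.7% lower. Only MCM4 also reached a log2 fold change of 1, a pair of thresholds that 4.48% of genes passed in the higher and 6.97% in the lower direction. The test was limma on log2(FPKM + 0.1), with Benjamini-Hochberg adjustment over the 13621 genes, and log2 fold changes are on that scale. Summed over the 6 genes, the level rose 1.92-fold, from 99.3 ± 1.77 to 190.6 ± 1.75 FPKM, and 1.65-fold without MCM4. Together the 6 genes had 7916 to 8618 reads in a wild strain library and 14931 to 17442 in an RRM2-OE library. Their median log2 fold change was 0.74, and that of all genes tested was 0.01. In bulk RNA, more cells in the phases that transcribe these genes and more MCM RNA per cell cannot be told apart.

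**Figure D1:**
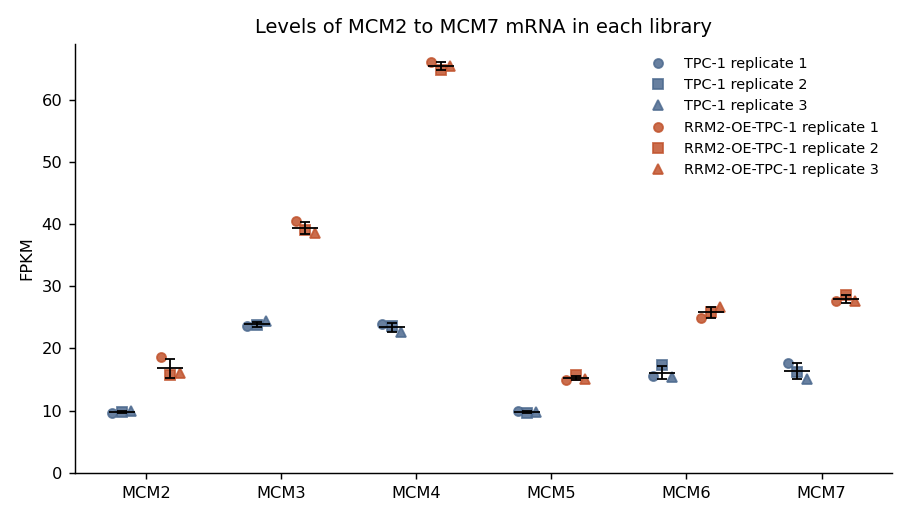
FPKM (vertical axis, linear from 0) of each MCM gene in each of the 6 libraries. Marker shapes give the replicate number, bars the group mean ± SD (n = 3). For every gene the RRM2-OE-TPC-1 libraries lie above the TPC-1 libraries, and MCM4 moves from beside MCM3 at 23.4 FPKM to 65.4 FPKM, the top of the plot.

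MCM2 and MCM5 meet at the gate of the ring, which opens to let DNA in, and the N-terminal tail of MCM2 also binds histones. MCM2 was at 9.61, 9.75 and 9.997 FPKM in wild strain replicates 1 to 3 and at 18.6, 15.8 and 16.0 FPKM in RRM2-OE cells. Replicate 1 of the RRM2-OE group was the highest of the 6 libraries and stood apart from its own group by more than the whole wild strain group spanned, yet the groups did not overlap. The log2 fold change of MCM2 was 0.77 ± 0.0649 (SE; limma adjusted p = 1.77e-05). MCM5 was at 9.92, 9.68 and 9.74 FPKM in the wild strain and at 15.0, 15.7 and 15.1 FPKM in RRM2-OE cells. Its replicates were tight in both groups, with a gap between the groups many times wider than either spread. The log2 fold change of MCM5, 0.63 ± 0.0392 (limma adjusted p = 3.25e-06), was the lowest of the 6 members, and 87.7% of genes tested had a lower one.

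MCM3 lies next to MCM5 in the ring and its C-terminus contacts the ORC-CDC6 complex during loading. It was at 23.6, 23.7 and 24.4 FPKM in the wild strain and at 40.4, 39.0 and 38.6 FPKM in RRM2-OE cells. The groups were far apart, and the log2 fold change was 0.72 ± 0.0340 (limma adjusted p = 9.05e-07). MCM6, the subunit that binds CDT1, was at 15.5, 17.3 and 15.5 FPKM in the wild strain and at 24.9, 25.8 and 26.7 FPKM in RRM2-OE cells. Replicate 2 was the highest wild strain library, still below every RRM2-OE library, and the log2 fold change was 0.68 ± 0.0534 (limma adjusted p = 1.23e-05). MCM7, the subunit that is ubiquitylated when the helicase is unloaded at the end of replication, was at 17.6, 16.3 and 15.0 FPKM in the wild strain and at 27.6, 28.6 and 27.6 FPKM in RRM2-OE cells. The wild strain libraries were the more scattered here (SD 1.29 against 0.598 FPKM) and the groups did not overlap. MCM7 changed by 0.77 ± 0.0575 on the log2 scale (limma adjusted p = 8.96e-06).

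E2F factors are known to bind MCM promoters. RefSeq promoter sequences were therefore searched on both strands for the letters TTTCCCGC, TTTGGCGC, TTTCGCGC and TTTGCCGC, forms of the E2F element. The search covered the 250 bases before each RefSeq start (GRCh38.p14). Sequences were at hand for 4 members, MCM2, MCM3, MCM6 and MCM7, and not for MCM5 or for MCM4, the member that rose most. Of these, MCM3, MCM6 and MCM7 held at least 1 match in 1 of their promoters, against 3.4% of 27305 genes. MCM6 held 4 matches, which overlap in pairs to give the same 12 letters at 152 to 141 and at 90 to 79 bases before the start. MCM3 held 1 match at 174 to 167 bases before the start, and the first of 3 MCM7 promoters held matches at 187 to 180 and at 9 to 2 bases before its start. The window of MCM2 held none of these letters. GENCODE 29 exons covered all 250 bases of the MCM2 window and of the first MCM7 window. Both RefSeq starts lie inside the GENCODE 29 span of the gene, so these windows are not only sequence upstream of the gene. The 2 sequences below are shown for these letters, in capitals, each 5′ to 3′ on the strand of the gene and only where no GENCODE 29 exon lies: for MCM6 all 250 bases, chr2:135876444-135876693 on the minus strand, and for MCM3 the outer 111 of 250 bases, chr6:52284882-52284992 on the minus strand.
MCM6: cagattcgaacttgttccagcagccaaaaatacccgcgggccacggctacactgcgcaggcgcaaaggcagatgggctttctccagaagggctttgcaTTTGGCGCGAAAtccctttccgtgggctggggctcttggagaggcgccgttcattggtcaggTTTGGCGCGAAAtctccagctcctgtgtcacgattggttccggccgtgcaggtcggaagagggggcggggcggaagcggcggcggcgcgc
MCM3: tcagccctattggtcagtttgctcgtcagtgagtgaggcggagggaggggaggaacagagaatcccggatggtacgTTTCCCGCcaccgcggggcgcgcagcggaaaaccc
The letters CCAAT, the core of the NF-Y element, were found on either strand in the windows of MCM3, MCM6 and MCM7, against 37% of genes, and overlapped none of the E2F matches. The letters TTTGAA, the cell cycle homology region of late cell cycle genes, were in the window of 0 of the 4 genes, against 16.1% of genes. These matches are letters in a window of fixed length, and binding was not measured. A part of E2F factors in the rise of the members was not tested.

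MCM4 was the member that rose most. MCM4, MCM6 and MCM7 make up the stable core of the ring, and the N-terminal tail of MCM4 is a main substrate of the CDC7 kinase. MCM4 was at 23.9, 23.5 and 22.6 FPKM in the wild strain and at 66.1, 64.7 and 65.5 FPKM in RRM2-OE cells. Every RRM2-OE library was above 64 FPKM and no wild strain library reached 24, with 2514 to 2787 reads on MCM4 in the wild strain and 6661 to 7734 in RRM2-OE cells. The mean rose 2.80-fold, the log2 fold change was 1.48 ± 0.0336 (limma adjusted p = 3.19e-08), and 98.5% of genes tested had a lower change. The other 5 members rose 1.56-fold (MCM5) to 1.72-fold (MCM2).

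**Figure D2:**
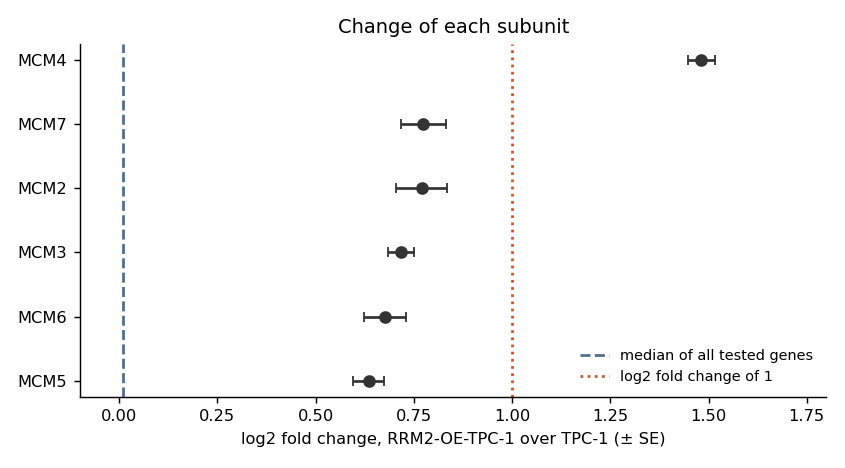
log2 fold change (horizontal axis, RRM2-OE-TPC-1 over TPC-1) of each MCM gene with its SE. The dashed line is the median of the 13621 genes tested, 0.01, and the dotted line a log2 fold change of 1; MCM4 alone lies to the right of it, and the other 5 lie between 0.63 and 0.77.

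The helicase needs its subunits in equal numbers, so each member was compared with the mean of the other 5 within the same library. The comparison was added after the data were seen (limma, adjusted together with all genes tested). Except for MCM4, the adjustment left the limma p nearly as it was, from 0.00620 to 0.00734 for MCM3 and from 0.208 to 0.220 for MCM7. The adjusted p values of these members are thus close to unadjusted ones. An adjustment over the MCM genes alone was not made. MCM4 exceeded the mean change of the others by 0.77 on the log2 scale (95% interval 0.69 to 0.84, adjusted p = 1.63e-07). The difference was -0.15 for MCM3 (adjusted p = 0.00734), -0.20 for MCM6 (adjusted p = 0.0128) and -0.25 for MCM5 (adjusted p = 8.05e-04), each set against a mean that includes MCM4. For MCM2 the difference was -0.09 (95% interval -0.25 to 0.08, adjusted p = 0.276) and for MCM7 it was -0.08 (95% interval -0.22 to 0.06, adjusted p = 0.220), neither past the threshold. The members did not rank the RRM2-OE libraries alike. Replicate 1 was the highest RRM2-OE library for MCM2, MCM3 and MCM4 and the lowest for MCM5, MCM6 and MCM7.

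MCM4 made up 23.5% ± 0.321 of the summed MCM FPKM in the wild strain and 34.3% ± 0.213 in RRM2-OE cells (SD, n = 3), and accounted for 46.1% of the rise of the sum. By library its share was 23.9%, 23.5% and 23.3% in the wild strain and 34.3%, 34.1% and 34.6% in RRM2-OE cells. The 2 groups of shares lay more than 10 percentage points apart. In an exact two-sided permutation test the share of MCM4 gave p = 0.1, the smallest that 3 libraries against 3 allow, so the difference cannot pass 0.05 in this test. Shares of a library sum to 100%, so a larger share of MCM4 leaves less for the others. The shares of MCM3, MCM5, MCM6 and MCM7 were lower without overlap, also at p = 0.1 in the exact test. MCM3 went from 24.1% ± 0.855 to 20.6% ± 0.316. For MCM2, at 9.86% ± 0.370 and 8.82% ± 0.733, the shares overlapped, with an exact permutation p of 0.2.

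**Figure D3:**
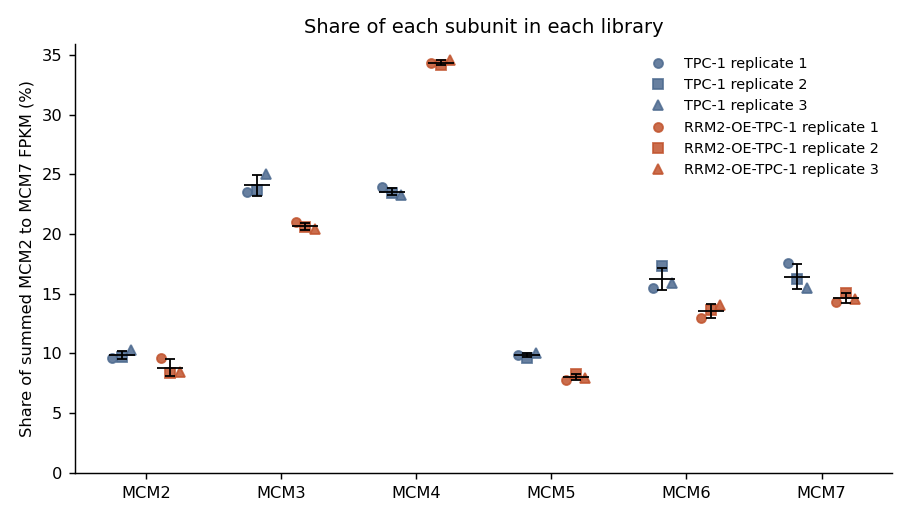
Share of each subunit in the summed MCM2 to MCM7 FPKM of its library (vertical axis, %, linear from 0), with bars for the group mean ± SD (n = 3). The MCM4 share moves up from 23.5% to 34.3%, and the shares of the other subunits move down, with overlap between groups for MCM2 only.

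In FPKM, which is per length, the order of levels in the wild strain was MCM3, MCM4, MCM7, MCM6, MCM2 and MCM5. Within the pairs MCM3 and MCM4, MCM7 and MCM6, and MCM2 and MCM5 the libraries overlapped, while the pairs themselves were separate. In RRM2-OE cells the order was MCM4, MCM3, MCM7, MCM6, MCM2 and MCM5, and no neighbours overlapped. The highest mean was 2.44 times the lowest in the wild strain and 4.29 times in RRM2-OE cells. The length behind the values was the union of all annotated exons, which exceeded the principal transcript of each gene by a factor of 1.10 (MCM6) to 2.08 (MCM5). With the length of the principal transcript, tried after the data were seen, the order in both groups was MCM4, MCM3, MCM7, MCM5, MCM6 and MCM2 with no overlap of neighbours, so MCM4 was highest also in the wild strain, at 39.0 ± 1.13 against 27.2 ± 0.475 for MCM3. The order of levels between the genes thus changed with the length used, whereas a fold change of a gene does not involve its length.

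Of the 9 genes tested that load the ring or restrain its loading, 7 rose, 1 fell and 1 did not pass the test, and 5 of the 9 passed both thresholds in the higher direction. Their median log2 fold change was 1.21, beside 0.01 for all genes tested, of which 34.9% rose and 4.48% rose past both thresholds; the same background holds for each list that follows. In the origin recognition complex ORC1, a subunit that binds ATP and chromatin at origins, changed by 1.88, ORC3 by 1.30 and ORC6 by 1.21. ORC4 fell (-0.39, limma adjusted p = 6.08e-04) and ORC2 did not pass the test (-0.01, 6.85 ± 0.216 and 6.80 ± 0.110 FPKM). CDC6, the loading ATPase, changed by 1.38 and GMNN, geminin, which blocks CDT1 outside G1, by 1.46. CDT1, which brings the MCM ring to origins, rose by 0.74, about as much as the median member of the ring.

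The genes that turn loaded rings into active helicases rose without exception: 13 of 13 tested passed the adjusted p, and 8 of 13 passed both thresholds, with a median of 1.10. The GINS subunits changed by 1.96 (GINS1), 1.71 (GINS2), 1.37 (GINS3) and 1.45 (GINS4), and CDC45 by 1.03. MCM10, which despite its name is no ring subunit and acts when the helicase is activated, changed by 1.67 (2.23 ± 0.235 to 7.31 ± 0.127 FPKM). RECQL4 changed by 1.18 and TICRR, the partner of TOPBP1 in CDC45 loading, by 1.10. CDC7, the kinase that acts on MCM4, rose by 0.37 and its activator DBF4 by 0.32.

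Of the genes for proteins that travel with the helicase at the fork, 8 of 8 tested rose, 3 of them past both thresholds, with a median of 0.88. CLSPN, claspin, which links the fork to the CHK1 checkpoint, changed by 2.12, POLE2 of the leading strand polymerase by 1.26 and WDHD1, which ties CMG to polymerase alpha, by 1.22. Of the 9 genes for taking the helicase off chromatin, 6 rose, 1 fell and 2 did not pass the test, with a median of 0.57. The ATPase VCP changed by 1.05 and its cofactor UFD1 by 1.04, both past both thresholds, and UBXN7, another VCP cofactor, fell by 0.59. LRR1, the substrate receptor of the ligase that marks MCM7, rose by 0.78 and TRAIP, a second ligase for CMG, by 0.82.

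Of 3 relatives of the ring subunits tested, 2 rose and 1 did not pass the test. MCM8 was at 3.16 ± 0.0216 FPKM in the wild strain and 5.89 ± 0.170 in RRM2-OE cells (log2 fold change 0.87, limma adjusted p = 4.36e-06), whereas MCM9, its partner in a helicase for homologous recombination, was at 1.46 ± 0.0964 and 1.33 ± 0.0254 FPKM (-0.12, limma adjusted p = 0.318). MCMBP, the MCM binding protein that protects newly made subunits, rose by 0.60 (limma adjusted p = 8.20e-06). MCMDC2, a meiotic relative, was below the minimum for testing.

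Genes of S and of G2/M phase moved with the members, and their part in the result was not tested. Of 30 S phase genes tested outside the lists above, 30 rose, 12 of them past both thresholds, with a median of 0.93. Those 12 were CCNE2, PCNA, DSCC1, FEN1, EXO1, RRM1, TYMS, CHAF1B, BRIP1, UHRF1, BLM and SLBP, with changes from 1.00 (SLBP) to 1.87 (CCNE2, cyclin E2). Of 51 G2/M genes tested 45 rose, 2 fell and 4 did not pass the test, with a median of 0.70. The 10 past both thresholds were TUBB4B, ANLN, CDC20, CDCA2, KIF20B, HMMR, TTK, GTSE1, BUB1 and RANGAP1, from 1.01 (RANGAP1) to 2.15 (TUBB4B).

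**Figure D4:**
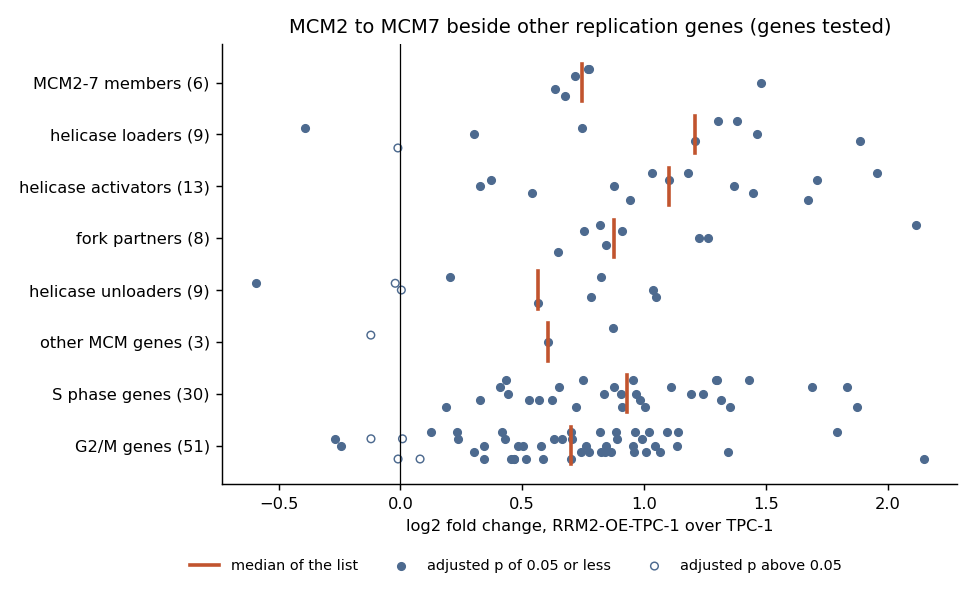
log2 fold change (horizontal axis, RRM2-OE-TPC-1 over TPC-1) of each tested gene of the MCM ring and of 7 other lists, with the number tested in brackets. Each point is a gene, open where the adjusted p was above 0.05, its vertical place within a row has no meaning, and the vertical bar is the median of the list; 5 of the 6 ring subunits sit close together around 0.72, and the medians run from 0.57 (unloaders) to 1.21 (loaders).

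Among 11445 tested protein-coding genes outside the ring, those whose profile over the 6 libraries came nearest to the mean MCM profile were SBDS, FSTL1, POLE3, ELAC2 and AFAP1L1. Nearness was the root mean square difference of centred log2 values, from 0.0138 for SBDS to 0.0228 for AFAP1L1, and the points share the same 2 groups of libraries. SBDS, a ribosome maturation factor, changed by 0.83 and POLE3, the histone-fold subunit of polymerase epsilon, by 0.85. The mean includes MCM4, which rose more than the other members. The members themselves differed from it by 0.0683 (MCM7) to 0.108 (MCM5), and MCM4 by 0.320. At these distances 220 (MCM7) to 648 (MCM5) of the 11445 genes were as near or nearer, and 3807 for MCM4. No member was thus among the genes nearest to the mean.

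The genes beside the members did not move alike. MCM4 (chr8:47960185-47978160, plus strand, GRCh38, 16 exons) and PRKDC, the catalytic subunit of DNA-dependent protein kinase, start 2 bases apart on opposite strands and share no exon bases. PRKDC rose as well, from 67.1 ± 1.31 to 105.4 ± 2.17 FPKM (log2 fold change 0.65), and the ratio of MCM4 to PRKDC went from 0.348 ± 0.0114 to 0.621 ± 0.0110 without overlap (exact two-sided permutation p = 0.1, the smallest possible). On the other side of MCM4, UBE2V2 rose by 0.33. MCM5 (chr22:35400063-35425430, plus strand, 17 exons) lies 5849 bases from HMOX1, heme oxygenase 1, which changed by 1.42, and its tested neighbour on the other side, APOL6, fell by 0.61. The neighbours of MCM6 (chr2:135839626-135876426, minus strand, 17 exons) were UBXN4, which fell by 0.14, and DARS, at -0.0022 and not past the test.

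MCM2 (chr3:127598223-127622436, plus strand, 16 exons) overlaps TPRA1 on the opposite strand over 45 exon bases, and TPRA1 fell by 0.20 on the log2 scale while ABTB1 on the other side fell by 1.49. The antisense gene AC023593.1 covers 22.7% of the exon bases of MCM2 and had 0 to 4 reads in a library. MCM7 (chr7:100092728-100101940, minus strand, 15 exons) shares 392 exon bases, 8.94% of its own, with AP4M1 on the opposite strand, which fell by 0.40, and COPS6 on its other side rose by 0.45. The library kit keeps strand, but whether the counting used it is not given in the sources used here. Reads in these overlaps may thus have been counted for either gene or left out. The introns of MCM7 hold MIR25, MIR93 and MIR106B, and the table gave 3 to 5 reads on MIR25, 0 on MIR93 and 0 to 1 on MIR106B in a library; these libraries were not made to measure mature miRNAs. MCM3 (chr6:52264009-52284881, minus strand, 17 exons) had PKHD1 and PAQR8 as its tested neighbours, which fell by 0.93 and 2.11.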

How the data were processed

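mRNA of 3 TPC-1 and 3 RRM2-OE-TPC-1 libraries was measured by paired-end RNA sequencing. The deposited values are FPKM, which the authors made with fastp for cleaning, HISAT2 (2.0.5) for alignment and featureCounts (1.5.0) for counting, with versions from the submitters' processing notes. The labels describe rRNA removal and RNase R digestion, the methods poly(A) selection. The 58735 genes matched GENCODE 29 (GRCh38) in identifier, position and exon length. Because the unit was FPKM and not counts, limma (3.58.1, R 4.3.3; lmFit, eBayes with trend) was run on log2(FPKM + 0.1) over 13621 genes with an FPKM of 0.5 or more and 10 or more recovered reads in at least 3 libraries. Calls used an adjusted p of 0.05, with or without an absolute log2 fold change of 1. Exact permutation tests and motif searches used Python 3.11.15 with scipy 1.17.1. The procedure was run on simulated data with fewer changed genes than were called here and with changes larger than those of the members. That run therefore does not cover changes of the size seen in the members. The RefSeq promoter table is of GRCh38.p14.

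The members and gene lists were chosen with earlier results of these data known. Named were the members, RRM2, genes of each list past both thresholds (at least 3 per list, filled by size of change), tested protein-coding neighbours, overlapping genes and the 5 nearest patterns; ORC2, ORC4, CDT1, CDC7, DBF4, UBXN7, LRR1, MCMDC2 and the cell type markers were added after their values were seen. Alternatives were no filter, the FPKM minimum alone, eBayes without trend, other pseudocounts, other scalings, voom on recovered reads, the replicate number as a block, a test of a change above 1 and leaving out each library.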

Additional observations from a re-analysis of the deposited data

How the results depend on the processing

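For the 6 members, 90 of 90 combinations of member and alternative kept the direction and the side of both thresholds. The highest adjusted p was 2.56e-04 (limma), and leaving out a library changed none of their calls. These are 15 alternatives per member, without the test of a change above 1. No filter, the FPKM minimum alone, the replicate block and eBayes without trend leave each fold change as it was. Under those settings only the adjusted p could differ. MCM4 changed by 1.42 to 1.50 over the 15 alternatives and remained the only member past both thresholds. With a pseudocount of 1, 716 genes passed both thresholds in place of 1560, with 5 activators, 1 unloader and 6 G2/M genes. A test of a change above 1 called 618 genes, 4 activators, 1 fork partner, 0 unloaders and 3 G2/M genes. Scaling to library totals left 0 unloaders past both thresholds and a member median of 0.69. The MCM4 share difference, 10.8 percentage points, was 12.5 in recovered reads and 11.7 with principal transcript lengths, the latter chosen after seeing the data. With those lengths MCM4 accounted for 51.4% of the rise of the sum, in place of 46.1%. Without any filter 2281 genes passed both thresholds.

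Same-numbered replicates did not deviate together (correlations -0.0105, -0.00602 and -0.0550), so the values gave no sign of pairing by number. They cannot show whether same-numbered samples were grown or prepared together. With the replicate block 1566 genes and the same count of members, 1, passed both thresholds, and 6 members passed the adjusted p. The paired exact test of the MCM4 share gave p = 0.25, the smallest that 3 pairs allow. Depth limits low genes such as MCMDC2 and the miRNA genes within MCM7, and 3 libraries a group limit the exact tests.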
